A study of Mus musculus with 800 samples.

Results

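The 7 genes described here, Gabra2, Gabra3, Gabra4, Gabra5, Gabrb1, Gabrb2 and Gabrg3, encode subunits of the GABA-A receptor, and they were taken by name from the 49492 gene symbols of the table. They are 4 α, 2 β and 1 γ subunit genes and not the whole family, so a cell without a β or γ member among the 7 may carry another subunit. The data are single-cell RNA-seq libraries of retinal cells from C57BL/6 mouse embryos that carry Sert-Cre, at stage E15.5. Cells of pooled retinas were dissociated and passed through flow cytometry, and 400 cells are labelled Tomato+ and 400 Tomato-. The labels give Tomato as the genotype, and neither the reporter allele nor the sorting gates are given in the sources used here. Sert-Cre is a Cre recombinase driven by the serotonin transporter gene Slc6a4, which in the embryonic mouse retina is active in retinal ganglion cells (RGCs), above all those that project to the same side of the brain. Tomato is a red fluorescent reporter. The labels name no animal, litter or culture for any cell. Each group is therefore 1 sample, and no test between them was possible. Each title carries a number, 1 to 10 for Tomato+ and 11 to 20 for Tomato-, and what it stands for is not given in the sources used here. The spread over these numbers is given as a description.

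GABA-A receptors are chloride channels opened by the transmitter GABA, each built from a ring of subunits that is usually made of α, β and γ members. GABA binds where an α meets a β subunit, benzodiazepines bind where certain α subunits meet a γ subunit, and the kind of α subunit sets much of the channel's kinetics and place in the membrane. In immature neurons with a high chloride content the channel depolarises the cell, and in the embryonic retina GABA is among the first transmitters present.

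Of the 800 cells, 81.75% of Tomato+ and 90.5% of Tomato- cells were kept, with a minimum of 1000 detected genes and no more than 20% mitochondrially encoded counts. The other 73 Tomato+ and 38 Tomato- cells exceeded the mitochondrial limit. Kept cells had a median of 271789 counts in Tomato+ (range 9653 to 644293) and 243410 counts in Tomato- (range 16826 to 689788). Clustering without the GABA pathway genes placed 79% of the 400 Tomato+ cells and 33% of the 400 Tomato- cells in RGC-like clusters. The progenitor-like clusters held 3 Tomato+ cells and 29% of the Tomato- cells, and a neurogenic precursor-like cluster held 0 Tomato+ and 53 Tomato- cells. Another 8 Tomato+ and 61 Tomato- cells stayed unnamed in cluster 3, led by Tfap2b, Crx and Neurod4. The summed level of 12 RGC markers was 21014 CPM (a gene's counts scaled to a library total of 1e6) in Tomato+ and 18471 CPM in Tomato- RGC-like cells, against 1479 CPM in Tomato- progenitor-like cells. Title numbers 8 and 10 of Tomato+ kept 26 and 22 RGC-like cells, against 33 to 36 for the other Tomato+ numbers. Without them, and with the other kept cells clustered anew, the log2 ratios within RGC-like cells were 1.57 for Gabra3, 0.10 for Gabra2 and -1.33 for Gabrg3. The same members passed a log2 ratio of 1. That clustering can also change which Tomato- cells count as RGC-like.

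On mouse build GRCm38, Gabra2 lies on chr5:70957597-71095849 and Gabra4 on chr5:71569749-71658308, both on the minus strand. Gabrb1 lies on the plus strand at chr5:71658113-72149037, head to head with Gabra4, and the 5′ ends of both genes overlap. Gabrg3 (chr7:56716465-57387188) and Gabra5 (chr7:57407672-57510059) are neighbours on the minus strand. Gabrb2 lies on chr11:42419757-42629028 (plus strand) and Gabra3 on chrX:72432681-72656848 (minus strand). Whether counting used strand is not given in the sources used here, so reads from the shared 5′ ends of Gabra4 and Gabrb1 cannot be told apart. Gabra5 also overlaps 1 other protein-coding gene on the opposite strand, so its counts carry the same doubt. Gabra3 overlaps 4 annotated genes, 2 of them on the opposite strand, and Gabrg3 overlaps 6, with 3 on the opposite strand, none of them protein-coding. Gabra2 and Gabrb2 overlap none.

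Promoter windows of the 3 members on which the results turn are shown because they differ in composition. Each is the RefSeq window of build GRCm38.p6, from 250 bases before to 50 bases after an annotated start, written 5′ to 3′ on the gene's own strand. The windows are Gabra2 chr5:71095800-71096099, Gabra3 chrX:72656870-72657169 and Gabrg3 chr7:57387166-57387465, all on the minus strand. Capitals mark matches on either strand to the GC box GGGCGG or the TATA box TATAAA.
Gabra2: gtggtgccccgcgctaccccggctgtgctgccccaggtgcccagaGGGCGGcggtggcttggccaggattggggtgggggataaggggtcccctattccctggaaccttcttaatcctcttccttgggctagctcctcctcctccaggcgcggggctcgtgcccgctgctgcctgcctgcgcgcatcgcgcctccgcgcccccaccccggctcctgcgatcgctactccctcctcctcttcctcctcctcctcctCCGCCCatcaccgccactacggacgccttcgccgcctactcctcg
Gabra3: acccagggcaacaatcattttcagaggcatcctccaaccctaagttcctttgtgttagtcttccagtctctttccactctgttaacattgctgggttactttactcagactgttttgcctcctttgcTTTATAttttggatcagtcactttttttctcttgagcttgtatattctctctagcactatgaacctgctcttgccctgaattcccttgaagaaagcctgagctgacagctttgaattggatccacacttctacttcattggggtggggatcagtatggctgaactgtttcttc
Gabrg3: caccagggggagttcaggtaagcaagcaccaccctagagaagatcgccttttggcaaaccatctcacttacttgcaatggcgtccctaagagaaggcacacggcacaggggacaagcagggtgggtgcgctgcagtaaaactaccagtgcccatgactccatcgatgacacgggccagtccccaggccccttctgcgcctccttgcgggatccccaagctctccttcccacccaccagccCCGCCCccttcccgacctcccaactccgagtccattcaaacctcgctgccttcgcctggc
The Gabra2 window held 25 CG dinucleotides and 2 GC boxes, and the Gabrg3 window 13 CG dinucleotides and 1 GC box, both without a TATA box. The Gabra3 window held 0 CG dinucleotides, 0 GC boxes and 1 TATA box match, upstream of the start. Over the first window of each of 27025 genes, the median was 7 CG dinucleotides, 5.78% had none, 35.9% held a GC box and 14.2% a TATA box. The cAMP response element TGACGTCA (1.88% of windows) and the homeodomain core TAATTA (5.31%) were found in none of the 3 windows. Both strands were searched and no match overlapped another. A match is a description of the letters only. Gabra3 has a second annotated start, whose window overlaps the one shown and holds the same TATA box match.

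Within RGC-like cells, Gabra3 was 9.77-fold higher in Tomato+ than in Tomato- cells. This ratio of CPM was 5.59-fold without clusters 4 and 9, which hold mostly Tomato- cells, 25.7-fold without title number 13 of Tomato- and 7.91-fold to 10.8-fold without any other 1 title number. Gabra2 differed between the groups by less than its spread over title numbers. Among Tomato- cells, Gabra2 was higher in RGC-like than in progenitor-like cells. Gabrg3 was lower in Tomato+ RGC-like cells by summed level, yet the share of cells that carried it was close in both groups. Without clusters 4 and 9 that share was 8.74% in Tomato+ (5.84 to 12.5), against 18.8% in Tomato- (10.4 to 30.1). A cell is said to carry a member when 5 or more of its counts fall on it. Gabra4, Gabra5, Gabrb1 and Gabrb2 were each carried by under 6% of the RGC-like cells of either group. Intervals are exact (Poisson for CPM, Clopper-Pearson for shares) at the 95% level and cover counting error only, not differences between animals. Where a count is 0, the limit given is that of 3 counts or 3 cells, which lies below the upper bound of the exact interval. Levels are not compared between genes, since it is not given whether the counts scale with transcript length.

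Gabra3 encodes α3, an α subunit prominent in the developing brain. Over the title numbers of RGC-like cells its level was 5.78 CPM at the lowest, 33.3 CPM at the median and 83.9 CPM at the highest in Tomato+, against 0, 0.773 and 36.7 CPM in Tomato-. All 10 Tomato+ numbers held at least 1 carrier cell, against 4 of 10 Tomato- numbers. The ranges overlapped through title number 13 of Tomato-, at 36.7 CPM, where 1 cell carried Gabra3; the next highest Tomato- number had 5.75 CPM, just below the lowest Tomato+ number. The pooled Gabra3 level in RGC-like cells was 33.1 CPM in Tomato+ (31.9 to 34.4), against 3.39 CPM in Tomato- (2.85 to 4.00). On the scale of log2(CPM + 10) this is a ratio of 1.69, beside a standard deviation of 0.75 between title numbers. There were 47 carriers in Tomato+ (14.9% of its RGC-like cells, 11.1 to 19.3), against 4 in Tomato- (3.03%, 0.832 to 7.58). After thinning each cell to 94783 counts and leaving out 30 Tomato+ and 9 Tomato- shallower cells, 20.6% of Tomato+ and 3.25% of Tomato- RGC-like cells had at least 1 count, and without thinning 25.9% of Tomato+ and 7.58% of Tomato- cells had.

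Several marker lists of other cell types moved with the groups among RGC-like cells. The 7 amacrine precursor markers summed to 8.77 CPM in Tomato+ (range over title numbers 0.732 to 30.96, 1 marker at 0), against 56.3 CPM in Tomato- (1.22 to 105.7, 1 marker at 0). The 11 progenitor markers summed to 73.9 CPM in Tomato+ (44.02 to 101.4), against 381.2 CPM in Tomato- (85.8 to 690), with no marker at 0 in either. The 7 erythroid markers summed to 1145 CPM in Tomato+ (2.01 to 9304, none at 0), against 3.03 CPM in Tomato- (0.360 to 5.70, 2 at 0). The 10 neurogenic precursor markers summed to 118.8 CPM in Tomato+ (68.3 to 209.01), against 318.3 CPM in Tomato- (171.5 to 523), with no marker at 0 in either. The 5 endothelial markers summed to 5.05 CPM in Tomato+ (0.260 to 16.4), against 31.3 CPM in Tomato- (0.258 to 120.1), and the 4 markers of optic stalk or astrocytes to 9.73 CPM in Tomato+ (0 to 28.4), against 1.02 CPM in Tomato- (0 to 4.13), with 2 markers of each list at 0 in both groups. Horizontal cell markers summed to 614 CPM in Tomato+, against 550 CPM in Tomato-, and photoreceptor precursor markers to 94.003 CPM in Tomato+, against 144.97 CPM in Tomato-. The lists for ciliary margin, pigment epithelium, microglia or macrophages, mesenchyme and lens were each under 7 CPM in both groups. The part of these lists in the Gabra3 and Gabrg3 differences was not tested.

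Gabra2 encodes α2, an α subunit typical of forebrain and spinal synapses. Among RGC-like cells its title numbers ran from 11.04 through a median of 26.5 to 52.4 CPM in Tomato+, against 9.54, 21.02 and 62.8 CPM in Tomato-, and the ranges overlapped almost fully. The pooled level was 30.96 CPM in Tomato+ (29.8 to 32.2), against 27.6 CPM in Tomato- (26.002 to 29.2), a log2 ratio of 0.12 beside a spread of 0.59. There were 72 carriers in Tomato+ (22.8%, 18.3 to 27.8), against 23 in Tomato- (17.4%, 11.4 to 24.99). Over all kept cells, where most Tomato- cells were not RGC-like, Gabra2 averaged 30.2 CPM in Tomato+, against 13.2 CPM in Tomato- (log2 ratio 0.79), and its title numbers again overlapped.

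Gabrg3 encodes γ3, one of the γ subunits that can complete a receptor. In RGC-like cells its title numbers ran from 4.03 through 7.85 to 28.8 CPM in Tomato+, against 0, 15.2 and 186.1 CPM in Tomato-. The Tomato- numbers enclosed the Tomato+ range on both sides. The pooled level was 10.6 CPM in Tomato+ (9.96 to 11.4), against 33.5 CPM in Tomato- (31.8 to 35.4), a log2 ratio of -1.08 beside a spread of 1.13. There were 27 carriers in Tomato+ (8.54%, 5.71 to 12.2), against 13 in Tomato- (9.85%, 5.35 to 16.3). The 5 cells with the most Gabrg3 held 46.8% of its counts in Tomato+ and 77.9% in Tomato- RGC-like cells, and without those 5 cells in each group the log2 ratio was -0.17. The Tomato- carriers were deeper, with a median of 412695 counts, against 317161 counts in the other Tomato- RGC-like cells. The log2 ratio was -0.72 without title number 13, where 1 cell held 457 counts, -0.86 without number 16 and -0.93 without number 20, each short of the margin of 1.

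**Figure D1:**
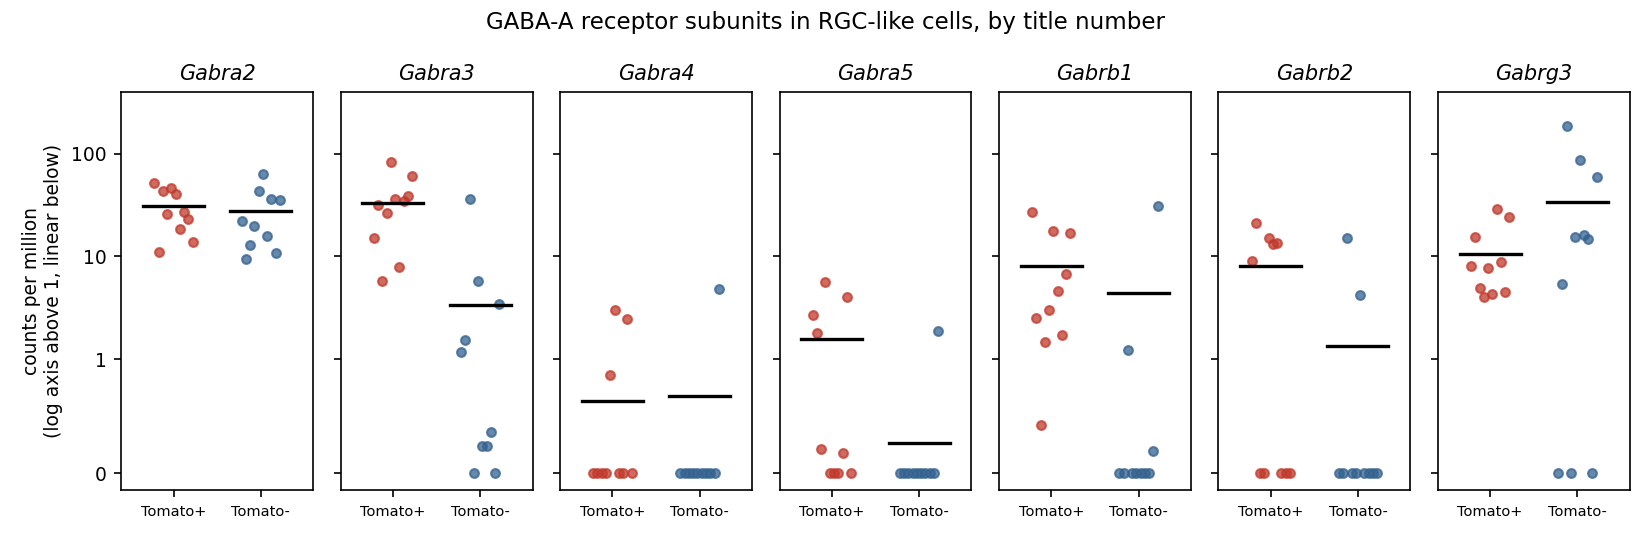
CPM of each of the 7 subunits in RGC-like cells, with 1 point per title number (10 each in Tomato+ and Tomato-) and a black line at the pooled level. The vertical axis is logarithmic above 1 and linear below; Gabra3 points of Tomato+ lie at 5.78 to 83.9 and all but 1 of the Tomato- points lie below them, while Gabra2 points overlap.

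The remaining α members were scarce. Gabra4 encodes α4, which forms receptors that classical benzodiazepines do not bind, and 3 Tomato+ RGC-like cells and 1 Tomato- cell carried it, with pooled levels of 0.630 CPM in Tomato+, against 0.678 CPM in Tomato-. Gabra5 encodes α5, known from tonic currents of the hippocampus. It was carried by 6 Tomato+ and 1 Tomato- RGC-like cells, with 1.57 CPM in Tomato+ (1.31 to 1.86), against 0.266 CPM in Tomato- (0.133 to 0.477), and 4 Tomato+ and 9 Tomato- title numbers were at 0.

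The β members, which with an α subunit form the GABA binding site, were carried by few cells too. Gabrb1 was carried by 18 Tomato+ cells (5.70%, 3.41 to 8.85) and 1 Tomato- cell (0.758%, 0.0192 to 4.15). Its title numbers ran from 0.420 through 3.78 to 26.9 CPM in Tomato+, against 0, 0 and 30.6 CPM in Tomato-, where 7 of 10 numbers were at 0 and a single cell was a carrier. The pooled level was 8.03 CPM in Tomato+, against 4.41 CPM in Tomato-, a log2 ratio of 0.32 beside a spread of 0.64. Gabrb2 was carried by 7 Tomato+ and 2 Tomato- cells, with 8.08 CPM in Tomato+, against 1.33 CPM in Tomato-, and 5 Tomato+ and 8 Tomato- numbers were at 0. Its 5 richest cells held 94.3% of the Tomato+ counts and all of the Tomato- counts.

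Set against all genes, 1 of the 7 members (Gabra3) was higher in Tomato+ RGC-like cells by a log2 ratio of at least 1, where 0.697% of 10336 genes were, and 1 (Gabrg3) was lower by that margin, where 0.987% were. The median log2 ratio of the 7 was 0.17, against -0.03 over all genes. Over all kept cells Gabra3 was the 1 member that was higher, with 32.3 CPM in Tomato+, against 6.21 CPM in Tomato- (log2 ratio 1.38), beside 3% of 10396 genes, and 0 members were lower, beside 6.72%. The gene filter behind those shares was 5 or more counts in 5% or more of either group's cells. It was passed by 4 of the 7 members in both comparisons, and by 2 in the comparison of classes below. The median of the 7 includes members that did not pass it, while that over all genes includes only genes that did. No member had title-number ranges that lay apart. Among all genes 0.0774% lay apart and higher and 0.029% apart and lower in RGC-like cells, and 1.64% and 3.24% over all kept cells.

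The classes were defined without the GABA pathway genes. Among Tomato- cells, Gabra2 was at 27.6 CPM in RGC-like and 0.318 CPM (0.145 to 0.604) in progenitor-like cells, a log2 ratio of 1.86. No progenitor-like cell carried it, which by that limit allows a share of up to 2.59%, and the 7 cells with any count had at most 2. The median depth was 324112 counts in Tomato- RGC-like and 231317 counts in Tomato- progenitor-like cells. In the 53 neurogenic precursor-like cells it had 0 counts, which by the same limit allows 0.249 CPM. Gabra3 was at 3.39 CPM in Tomato- RGC-like and 13.1 CPM (11.8 to 14.5) in Tomato- progenitor-like cells, a log2 ratio of -0.79, but 5 progenitor-like cells (4.31%) carried it and the 5 richest cells held 98.4% of its counts. Gabrg3 was at 33.5 CPM in RGC-like and 6.86 CPM in progenitor-like cells (log2 ratio 1.37), with carriers in 9.85% and 3.45% of cells. Gabrb1 and Gabrb2 had 1 count each and Gabra5 had 0 counts among the progenitor-like cells. In this comparison 2 of 7 members were higher in RGC-like cells by a log2 ratio of at least 1, beside 13.7% of 10635 genes, and 0 were lower, beside 13.3%. Any of the 7 was carried by 34 Tomato- RGC-like cells (25.8%), 9 progenitor-like cells (7.76%) and 2 of 53 neurogenic precursor-like cells (3.77%).

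The shares of cells that carried a member varied between the RGC-like clusters. Cluster 8, led by Igf1, Synpr, Eomes and Opn4, had Gabra3 at 78.8 CPM (73.99 to 83.9) in 38 Tomato+ cells, of which 13 carried it (34.2%, 19.6 to 51.4). In the same cells 6 carried Gabra2 (15.8%), against 17.05% of the Tomato+ cells of cluster 0 and 18.4% of those of cluster 1. In cluster 2, led by Chl1 and Car10, 31 of 85 Tomato+ cells carried Gabra2 (36.5%, 26.3 to 47.6), 18 carried Gabra3 (21.2%, 13.1 to 31.4) and 11 carried Gabrg3. In cluster 1, led by Crabp1, Sst, Tac1 and Slc6a4, 18 of 98 Tomato+ cells carried Gabra2, 9 carried Gabra3 (11.2 CPM) and 2 carried Gabrg3 (0.929 CPM). Cluster 0, led by Wbscr17, several predicted genes and Ephb1, was the shallowest of the RGC-like clusters, with a median of 176158 counts. It had the highest median mitochondrial share of them, 9.95% in Tomato+ and 12.8% in Tomato- cells. Of its 88 Tomato+ cells 15 carried Gabra2 and 7 carried Gabra3. The clusters were made from the same cells, so these differences are descriptions.

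Cluster 4, led by Cntn2, Ppp1r17 and Igfbp5, held 7 Tomato+ and 57 Tomato- cells. Of those 57 cells 4 carried Gabra2 (7.02%, 1.95 to 17.004), and none carried Gabra3, Gabrb1 or Gabrg3, which by the limit of 3 cells allows a share of up to 5.26% for each. Its median depth in Tomato- was 317161 counts. That was above the Tomato- cells of cluster 0 (198986 counts) and below those of clusters 1, 2 and 8 (423886, 442442 and 414224 counts). Among Tomato+ cells, those of clusters 0, 1 and 2 were shallower than this and those of cluster 8 deeper (332092 counts). The part of depth in these shares was not tested. Cluster 9 held 6 Tomato- cells only. Without clusters 4 and 9, a choice made after seeing the data, which left 77.25% of the 400 Tomato+ cells and 69 Tomato- cells, Gabra3 had 33.9 CPM in Tomato+, against 6.06 CPM in Tomato- (log2 ratio 1.45). Its carriers were then 15.2% of Tomato+ (11.4 to 19.7), against 5.80% of Tomato- (1.602 to 14.2). Gabra3 was higher in Tomato+ than in Tomato- cells in cluster 0 (31.7 and 18.9 CPM), cluster 1 (11.2 and 0.982 CPM), cluster 2 (38.6 and 3.38 CPM) and cluster 8 (78.8 and 1.32 CPM). These clusters hold 28, 14, 16 and 11 Tomato- cells, in that order. Only 4 Tomato- cells of these clusters carried Gabra3. Cluster 0 held 2 of them, cluster 1 held 0 and cluster 2 held 1. In cluster 0 the share of carriers was close, 7.95% of Tomato+ and 7.14% of Tomato- cells. The 5 richest cells there held 89.1% of the Tomato+ counts. Without clusters 4 and 9, Gabra2 had 30.3 CPM in Tomato+, against 38.4 CPM in Tomato-. Gabrg3 then had 10.9 CPM in Tomato+, against 60.3 CPM in Tomato-, and was carried by 8.74% of Tomato+ (5.84 to 12.5), against 18.8% of Tomato- (10.4 to 30.1).

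**Figure D2:**
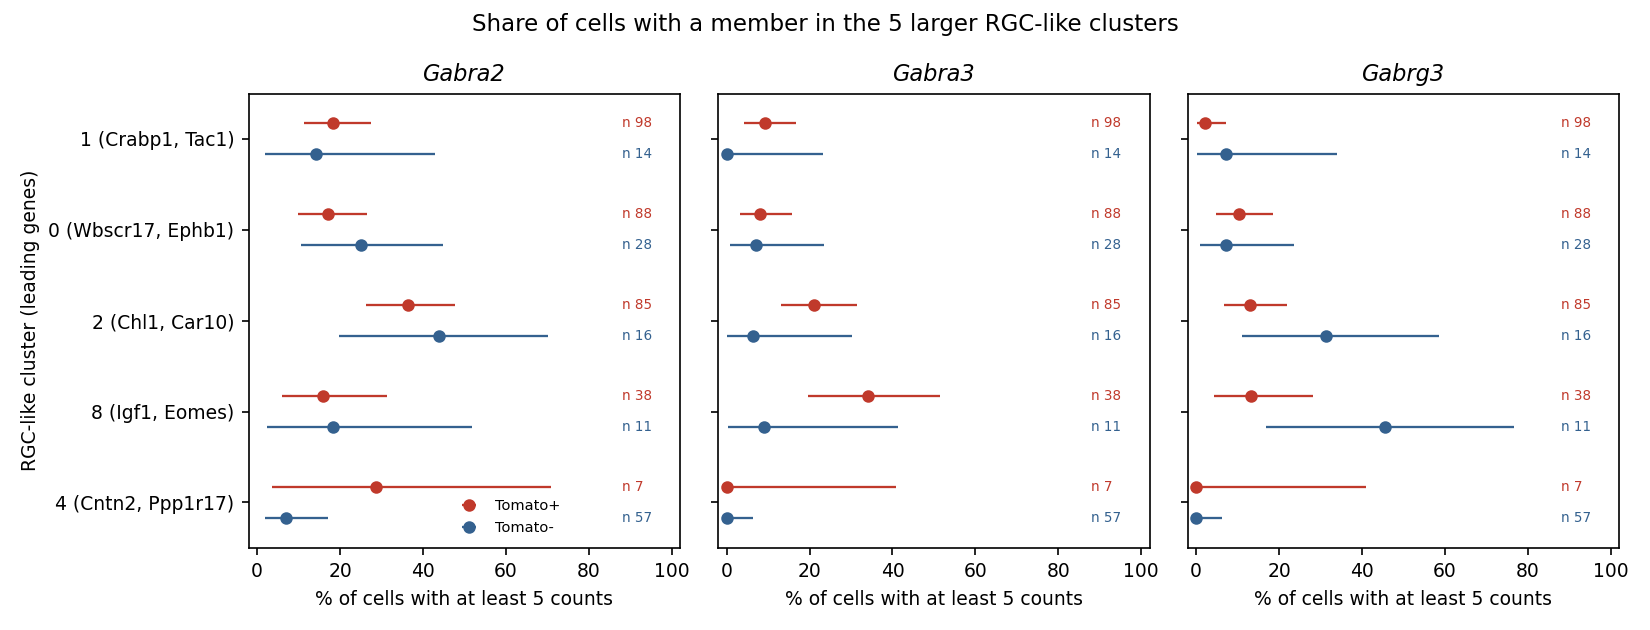
Percent of cells with at least 5 counts of Gabra2, Gabra3 and Gabrg3 in the 5 larger RGC-like clusters, Tomato+ above Tomato- in each, with exact 95% intervals and the number of cells (n). Gabra3 in Tomato+ cells reaches 34.2% in cluster 8, Gabra2 reaches 36.5% in cluster 2, and cluster 4, mostly Tomato- cells, has no carrier of Gabra3 or Gabrg3.

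Single cells mostly carried 1 of the 7 members or none. In Tomato+ RGC-like cells 56.6% carried none, 31.3% carried 1, 10.4% carried 2 and 1.58% carried 3, against 74.2%, 18.2%, 6.82% and 0.758% of Tomato- cells, and no cell of either group carried 4 or more. At least 1 member was carried by 43.4% of Tomato+ (37.8 to 49.02) and 25.8% of Tomato- RGC-like cells (18.5 to 34.1), a difference of 17.6 percentage points. Without clusters 4 and 9 those shares were 43.7% in Tomato+, against 42.03% in Tomato-. With a mitochondrial limit of 10% and the cells clustered anew, they were 44.3% in Tomato+, against 51.2% of 41 cells in Tomato-. Of the 57 Tomato- cells of cluster 4, 42 met that limit, but 3 counted as RGC-like in the new clustering. In it a cluster led by Igfbp5, Cntn2 and Peli2, with 69 Tomato- cells, had 11 of 12 RGC markers raised. The naming rule left that cluster unnamed, since its 10 leading genes held 1 horizontal cell marker and 0 RGC markers. Of cluster 0, 1 of 28 Tomato- cells and 44 of 88 Tomato+ cells met the limit, and 0 and 44 counted as RGC-like. At least 2 members were carried by 12.0% of Tomato+ and 7.58% of Tomato- cells, and without clusters 4 and 9 by 12.3% of Tomato+ and 14.5% of Tomato- cells.

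By kind of subunit, an α member was carried by 35.4% of Tomato+ and 21.2% of Tomato- RGC-like cells, a β member by 7.28% and 2.27%, and the γ member by 8.54% and 9.85%. As for any member, the α difference shrank without clusters 4 and 9. It reversed with a mitochondrial limit of 10% and the cells clustered and named anew. An α with a β member was found in 12 Tomato+ cells and 1 Tomato- cell, and an α with the γ member in 13 Tomato+ and 8 Tomato- cells. All 3 kinds together were found in 2 Tomato+ cells, both with Gabra2, Gabrb1 and Gabrg3, and in 1 Tomato- cell, with Gabra4, Gabrb1 and Gabrg3. At least 2 α members were carried by 16 Tomato+ cells (5.06%, 2.92 to 8.09) and 1 Tomato- cell (0.758%, 0.0192 to 4.15). The sets found most often in Tomato+ cells were Gabra2 alone (45 cells), Gabra3 alone (26), Gabrg3 alone (14) and Gabra2 with Gabra3 (10). In Tomato- cells they were Gabra2 alone (18 cells), Gabra2 with Gabrg3 (4) and Gabrg3 alone (4).

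**Figure D3:**
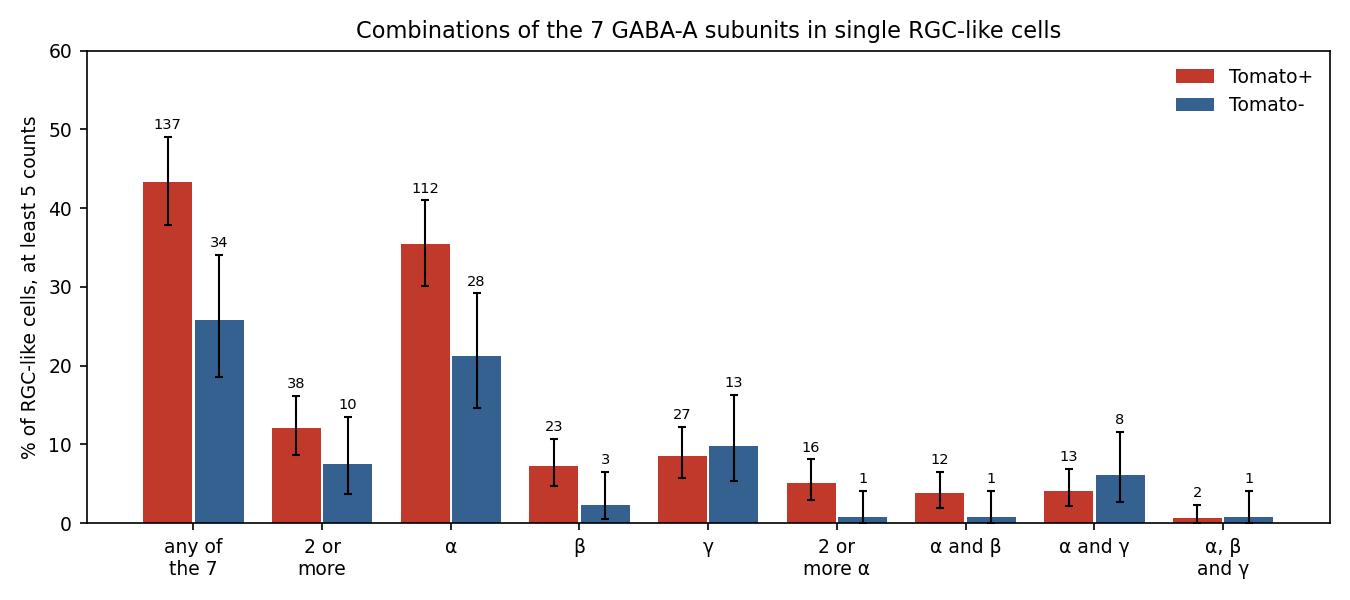
Percent of RGC-like cells that carry (at least 5 counts) any of the 7 members, 2 or more, or the named kinds together, Tomato+ left of Tomato-, with exact 95% intervals and the number of cells above each bar. Bars for any member stand at 43.4% and 25.8%, those for an α member at 35.4% and 21.2%, and those for all 3 kinds together below 1%.

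The share of cells with Gabra3 was close in cells with and without Gabra2. Of the 72 Tomato+ RGC-like carriers of Gabra2, 12 also carried Gabra3 (16.7%), against 14.3% of the cells without Gabra2. Gabrb1 was carried by 9.72% of the Gabra2 carriers and 4.51% of the other cells, which rests on 7 shared cells. Gabrg3 was carried by 12.5% of the Gabra2 carriers and 7.38% of the others, on 9 shared cells. The median depth was 275584 counts for Gabra2 carriers and 272784 for the other Tomato+ RGC-like cells, and 296322 for Gabra3 carriers, against 269392 for the others. The Spearman correlation of Gabra2 with Gabra3 across the Tomato+ RGC-like cells was 0.05. The genes most like Gabra2 were Acp2, Msantd4 and Tysnd1 and those most like Gabra3 were Pcdh19, Cfdp1 and Tubg2, out of 7383 genes. Their correlations, 0.21 to 0.25, are weak for sparse counts and are no finding.

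**Figure D4:**
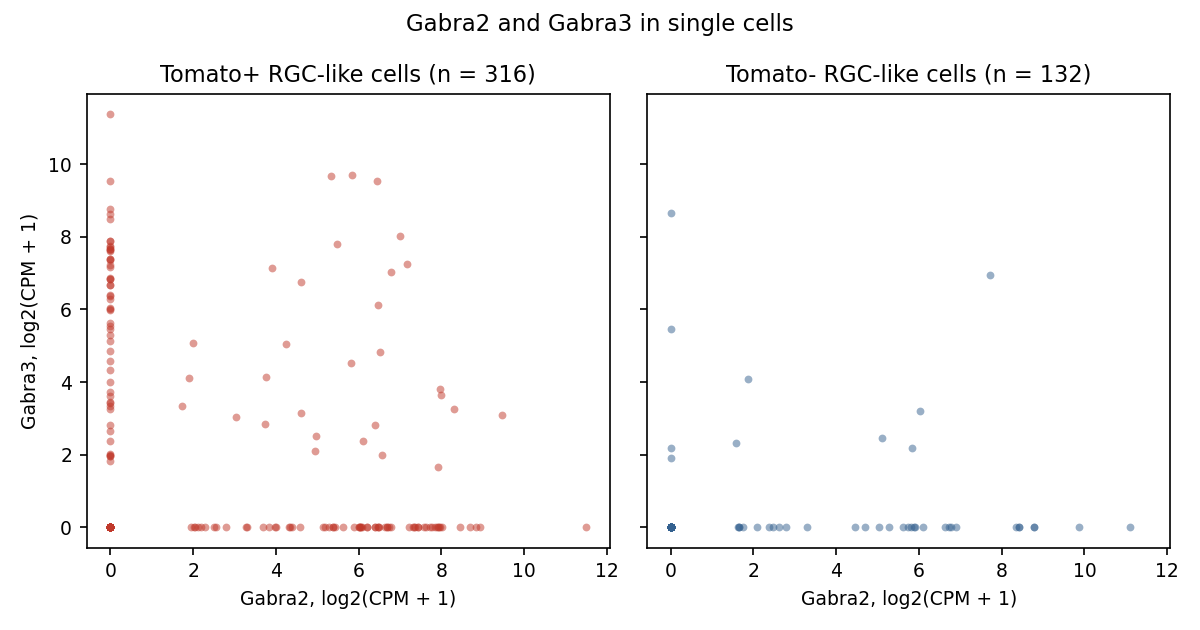
Gabra2 (horizontal) and Gabra3 (vertical) as log2(CPM + 1) in each RGC-like cell, Tomato+ cells in the left panel and Tomato- cells in the right. Most cells lie on an axis, at 0 for one gene or both, and the points along the vertical axis, with Gabra3 alone, are mostly Tomato+ cells.

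The wider GABA pathway was read from 6 fixed lists. Of 8 other GABA-A subunit genes, none passed the filter on low counts and all were below 3 CPM in both groups over all kept cells. Of 13 genes of receptor anchoring and trafficking, 0 passed a log2 ratio of 1 in either direction in RGC-like cells. Among all genes 0.697% were higher and 0.987% lower by that margin. The median of the 13 was 0.10, against -0.03 over all genes. The median was -0.16 for the list of GABA synthesis, transport and breakdown, -0.07 for chloride transport and 0.08 for the GABA-B receptor. In these lists 3 of 7, 6 of 7 and 4 of 4 genes passed the filter, and the medians include the rest. Gphn, the scaffold gephyrin, had 50.4 CPM in Tomato+, against 63.1 CPM in Tomato- RGC-like cells. Gabarap, which binds γ subunits during transport, had 376.2 CPM in Tomato+, against 351.1 CPM in Tomato-. Lhfpl4, which places receptors with a γ subunit at synapses, had 85.1 CPM in Tomato+, against 76.9 CPM in Tomato-. Between classes, 4 of the 13 were higher in Tomato- RGC-like than in progenitor-like cells, beside 13.7% of all genes: Gphn (63.1 and 16.97 CPM), Gabarapl1 (91.2 and 30.8), Lhfpl4 (76.9 and 28.9) and Trak1 (44.2 and 1.31).

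Of 7 genes of GABA synthesis, transport and breakdown, 1 was lower in Tomato+ RGC-like cells, beside 0.987% of all genes, and 0 were higher, beside 0.697%. It was Gad2, an enzyme that makes GABA, with 17.3 CPM in Tomato+, against 71.5 CPM in Tomato- (log2 ratio -1.58), carried by 13.3% and 19.7% of cells. The amacrine precursor, progenitor, neurogenic precursor and endothelial markers given above moved the same way. Gad2 was at 53.2 CPM in Tomato- progenitor-like cells, of which 17.2% carried it. The part of these cell types in the Gad2 difference was not tested. Of 7 chloride transport genes 0 passed a log2 ratio of 1, beside 0.697% of all genes higher and 0.987% lower. Clcn3 had 147.5 CPM in Tomato+, against 161.7 CPM in Tomato-. Stk39, a kinase that acts on chloride cotransporters, had 77.5 CPM in Tomato+, against 54.05 CPM in Tomato-. Of 4 glycine receptor genes 0 passed a log2 ratio of 1, beside the same shares, and 1 of the 4 passed the gene filter.

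The GABA-B receptor is a metabotropic GABA receptor made of the products of Gabbr1 and Gabbr2. Gabbr1 had 263.9 CPM in Tomato+, against 194.6 CPM in Tomato- RGC-like cells, and 81.6% of Tomato+ and 63.6% of Tomato- cells carried it. Gabbr2 had 171.8 CPM in Tomato+, against 128.1 CPM in Tomato-, carried by 65.2% and 37.9%. Over all kept cells both of these passed a log2 ratio of 1 (1.07 and 1.25), 2 of the 4 genes of this list, beside 3% of all genes, and in RGC-like cells neither did (0.42 and 0.40). Of the 4 genes, 1 was lower in RGC-like cells by that margin, beside 0.987% of all genes: Kctd12, an auxiliary subunit of this receptor, was lower in Tomato+ RGC-like cells, at 13.6 CPM, against 39.3 CPM in Tomato- cells (log2 ratio -1.06). Between classes, Gabbr1, Gabbr2 and Kctd8 were higher in Tomato- RGC-like than in progenitor-like cells, 3 of the 4 beside 13.7% of all genes, with Gabbr2 at 128.1 and 10.3 CPM.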

How the data were processed

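The authors deposited whole-number counts per gene and cell, without normalization; per the file headers the columns end in "umi", and whether the counts are molecules or reads is not given in the sources used here (median nonzero count 16, 34.4% of nonzero counts below 5). The labels' protocols name SmartSeq2 libraries, and the submitters' processing notes name Seurat 2.3, R 3.4.4 and mm10; the aligner, counter and annotation are not given in the sources used here. The table held 1 column that matched no labelled cell and was left out, and 0 cell columns were identical. Kept cells had 1000 or more genes and no more than 20% mitochondrial counts. Kept cells were clustered with scanpy 1.11.5 and leidenalg 0.10.2, and clusters were named from fixed marker lists; the naming rule was set with the clusters known, no doublet caller was run, and class counts can differ from other groupings of these cells.

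Counts were summed per group and class and divided by the total count (CPM). Ratios use a pseudocount of 10 CPM, and a log2 ratio of at least 1 counts as a difference. At least 5 counts make a carrier. Each group is 1 sample, so p-values were not computed. Alternative scaling used edgeR 4.0.16 (TMM) and DESeq2 1.42.0 (median of ratios). The ratio and interval code was tested on simulated data. Promoters came from RefSeq (GRCm38.p6, 7 of 7 members matched) and gene positions from GENCODE M21. List genes are named where 10% or more of either group's cells held 5 or more counts. The genes most like a member are the 3 with the highest Spearman correlation of log2(CPM + 1) across Tomato+ RGC-like cells. The members and lists were chosen with earlier results of these data known, and values of some genes of the fixed lists are not reported here.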

Additional observations from a re-analysis of the deposited data

Results flagged for a closer look

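Among RGC-like cells, 9 sets of 10 title numbers with at least 5 nonzero values were checked for a single title number far from the others, and 2 had one. For normally spread values chance gives about 1 in 20, a rate not shown to hold for values as sparse as these. Both were title number 13 of Tomato-. Gabra3 was at 36.7 CPM there, and the next highest Tomato- number was at 5.75 CPM. Gabrg3 was at 186.1 CPM there, and the next was at 86.2 CPM. That title number holds 8 RGC-like cells, and each value rests on 1 carrier cell.

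Cells left out by the mitochondrial limit also held Gabra2, at 46.8 CPM in 73 Tomato+ cells, of which 7 carried it, against 4.61 CPM in 38 Tomato- cells, of which 1 did. These cells enter no comparison above, and 5 cells held 91.7% of the Tomato+ counts.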

How the results depend on the processing

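Gabra3 was higher in Tomato+ by a log2 ratio of at least 1 under each of the 10 other settings over all kept cells (1.18 to 2.21) and each of 15 within RGC-like cells (1.45 to 2.96), and without any 1 title number (1.17 to 1.65 and 1.46 to 1.93). Gabrg3 within RGC-like cells was lower by that margin under 12 of 15 settings and kept its sign in all (-1.75 to -0.17). Gabra2 within RGC-like cells ran from -0.28 to 0.57. The number of members lower within RGC-like cells, 1, was 0 with each cell weighted equally, with RGC-like cells taken from marker counts and without the 5 richest cells, and 0 to 1 when 1 title number was left out (0 without 13, 16 or 20). The number higher over all kept cells, 1, was 4 with a pseudocount of 1 CPM and 2 with a mitochondrial limit of 10% or without the 5 richest cells; within RGC-like cells, 1 became 3 with a pseudocount of 1 CPM. Between classes, 2 higher and 0 lower became 4 and 1 with that pseudocount. Of all genes past the filter, 7.39% were higher over all kept cells with a pseudocount of 1 CPM, 4.44% within RGC-like cells, and 21.6% higher and 19.9% lower between classes. Shares of RGC-like cells differed by 17.6 percentage points for any member, 4.45 for 2 or more and 14.2 for an α member. With a mitochondrial limit of 10% and the cells clustered and named anew, these differences became -6.91, -8.23 and -4.99. Of the 28 Tomato- cells of cluster 0, 1 met that limit and 0 counted as RGC-like. Of the 57 Tomato- cells of cluster 4, 42 met it, but 3 counted as RGC-like under the new names. In all, 41 Tomato- RGC-like cells remained. Without clusters 4 and 9, a setting chosen after seeing the data, the differences were 1.66, -2.20 and 2.27. Without any 1 title number they ran from 14.9 to 19.96, 3.38 to 6.00 and 10.9 to 16.3. Median log2 ratios of the lists moved in these cases: GABA synthesis, transport and breakdown over all kept cells from -0.09 to -0.64 (pseudocount 1 CPM) or -0.69 (genes past the filter), and within RGC-like cells from -0.16 to -0.93 (pseudocount 1 CPM); glycine receptor over all kept cells from -0.21 to -0.57 (pseudocount 1 CPM) or 0.52 (genes past the filter). The causes of these moves were not tested. No paired analysis was possible because each group is 1 sample and no test was made; the row labels in the titles repeat between the groups, but their meaning is not given. No animals are named, so the precision given is that of counting.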
